A study of Mus musculus with 4 samples.

Results

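The genes described here are 9 genes of the epithelial-mesenchymal transition: the transcription factor genes Snai1, Snai2, Twist1, Twist2, Zeb1 and Zeb2, the intermediate filament gene Vim, and the cadherin genes Cdh1 and Cdh2. They were taken by name, and all 9 passed the low-count filter, among 18758 genes tested of 54115 with a summed read count. The study measured RNA from primary tumours that formed after injection of MC38, a colon adenocarcinoma line of the mouse. Tumours of the control group came from mice that received saline intraperitoneally on 10 days in a row (2 libraries), and the other tumours from mice given vanoxerine, an inhibitor of dopamine reuptake, at 25 mg/kg on the same schedule (2 libraries). The labels give neither the strain nor the age of the mice, and both groups were injected.

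In the epithelial-mesenchymal transition, cells give up the E-cadherin junctions that hold an epithelium together and take on the filaments, matrix contacts and motility of mesenchymal cells. Factors of the Snail, Zeb and Twist families repress Cdh1, and Snail and Zeb proteins bind E-boxes (CANNTG) in its promoter through their zinc fingers. The same genes are also used by stromal and immune cells of a tumour: fibroblasts express Twist and Snail family genes and vimentin, and macrophages express Zeb2 and vimentin.

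The Snail and Twist genes come as close relatives, and their sequences show how far reads could be shared between them. The first 30 coding bases of Snai1 and Snai2, from GENCODE transcripts on GRCm38, are printed here because this start, which encodes the repressor motif at the amino end of Snail proteins, differed at 4 bases, given in capitals.
Snai1: atgccgcgctccttcctggtcaGgaaGcCG
Snai2: atgccgcgctccttcctggtcaAgaaAcAT
The longest run of letters common to the Twist1 and Twist2 transcripts lay in the coding part of both and had 23 bases.
Twist1 and Twist2: ctgcgcaagatcatccccacgct
Runs of 31 letters were compared between the transcripts of each pair, and none was common to Snai1 and Snai2, to Twist1 and Twist2, or to Cdh1 and Cdh2, while Zeb1 and Zeb2 had 2 in common out of 10418 and 20151.

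The RefSeq promoter table (GRCm38.p6) held 250 bases before a start for Snai1, Twist1, Twist2, Vim and, with 4 starts, Zeb2. Snai2, Zeb1, Cdh1 and Cdh2 had no entry. The E-box letters of Snail and Zeb, CAGGTG on either strand (CACCTG on the other), were found once, in the Snai1 window, with the first base 126 bases before the start. No other window held CANNTG in any form. Over 32851 promoters of the same table and length, 17.2% held CAGGTG or CACCTG, which is itself a form of CANNTG, and 66.2% held CANNTG. The Snai1 window is shown because Snail is known to act on its own promoter. It covers chr2:167537945-167538194 on the forward strand, with the E-box in capitals, and the letters alone do not show a bound site.
Snai1 promoter: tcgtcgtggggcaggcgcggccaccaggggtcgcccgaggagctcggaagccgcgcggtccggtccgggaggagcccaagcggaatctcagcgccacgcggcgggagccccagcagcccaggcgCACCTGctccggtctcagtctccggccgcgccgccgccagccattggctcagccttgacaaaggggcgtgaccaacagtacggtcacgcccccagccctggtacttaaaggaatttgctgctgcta

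The libraries held 67289273 to 75748162 estimated reads. Libraries of a group differed by more than sampling noise, with a mean chi-square per gene of 37.5 in saline and 12.2 in vanoxerine, and were counted as separate samples. The labels do not say that they came from separate animals, so the spread behind the p-values may be only technical. Of the 8 colon epithelium markers, 5 did not pass the low-count filter. Among them Cdx2, the intestinal identity factor, had 0 reads in all 4 libraries, and Epcam, one of the 3 that passed, stood at 1.75 and 2.29 CPM (reads scaled to library size and TMM factor) in saline and at 4.22 and 4.01 CPM in vanoxerine. Cdh17, the intestinal cadherin, was present at 7.84 to 10.3 CPM, so the labelled colonic origin was visible in few of these markers.

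The question was how the transition genes stood in vanoxerine tumours against saline tumours. Zeb2, Cdh1 and Vim were higher, Snai1, Snai2, Twist1 and Twist2 were lower, and Zeb1 and Cdh2 did not pass the test. The test was edgeR's quasi-likelihood test with Benjamini-Hochberg adjustment over all 18758 genes, and a gene was called at an adjusted p under 0.05. The members' calls, 7 of 9, stand beside 36.9% of all genes tested. The 3 calls of a higher level stand beside 21.0% of all genes, and the 4 calls of a lower level beside 15.9%. In CPM the saline and vanoxerine libraries did not overlap for any of the 9 genes, and they did not overlap for 70.7% of all genes tested. In TPM they overlapped for Zeb1 and Cdh2. In tumour tissue, a lower share of a cell type and less RNA of the gene per cell cannot be told apart.

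**Figure D1:**
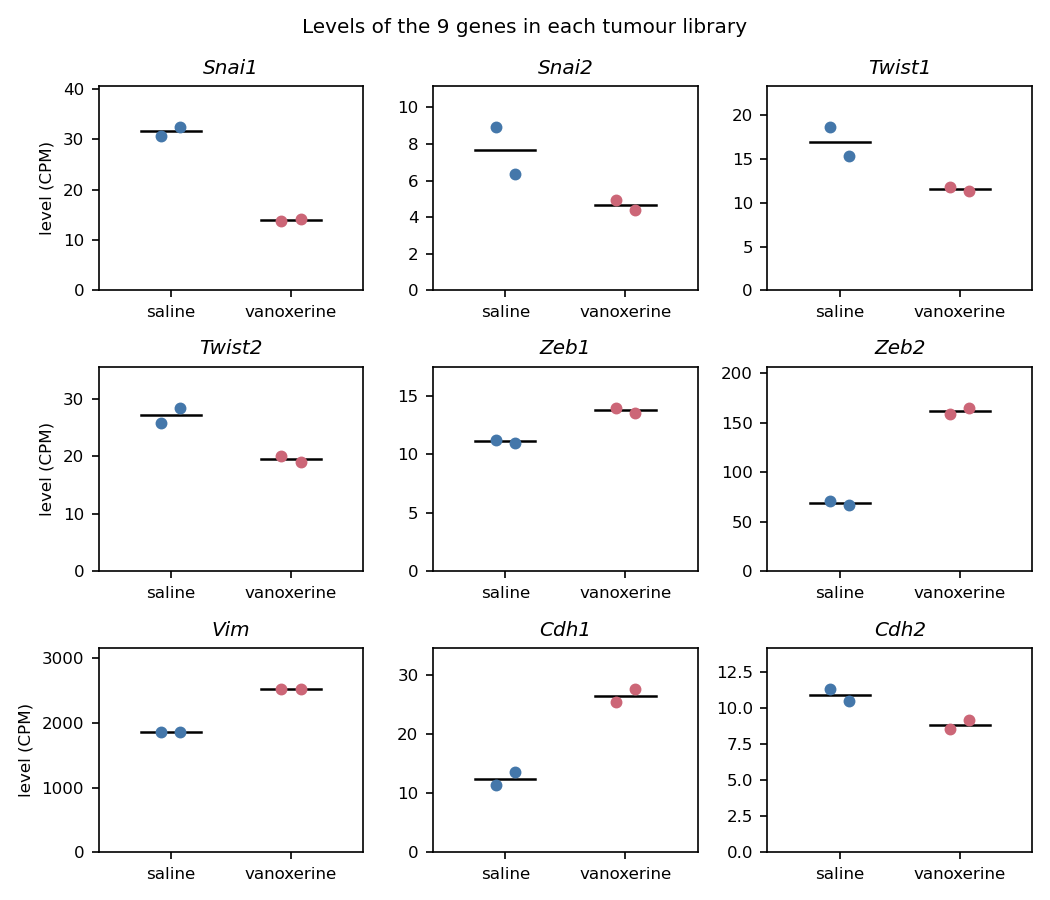
Levels of the 9 genes in CPM (vertical axes start at 0) in the 2 saline (blue) and 2 vanoxerine (red) libraries, with points for libraries and a bar for the group mean. Both vanoxerine points lie below both saline points for Snai1, Snai2, Twist1, Twist2 and Cdh2 and above them for Zeb1, Zeb2, Vim and Cdh1.

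Snai1 and Snai2 fell. Snai1 (ENSMUSG00000042821.7, chr2:167538195-167542814, forward strand, GRCm38) encodes Snail, a repressor of Cdh1. It stood at 30.65 and 32.5 CPM in the saline libraries and at 13.9 and 14.2 CPM in the vanoxerine libraries, so that the groups were far apart relative to the spread within them. Its mean was 31.6 ± 1.29 CPM (SD, n = 2) in saline and 14.1 ± 0.253 CPM in vanoxerine, a 2.25-fold lower level, with a log2 fold change of -1.17 ± 0.079 (SE) and an edgeR adjusted p of 0.00019. Of the genes called, 477 fell more than Snai1. It was called under each of the 19 alternative settings, with log2 fold changes from -1.30 to -0.86.

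Snai2 (ENSMUSG00000022676.7, chr16:14705852-14709385, forward strand) encodes Slug, the close relative of Snail. Its levels were lower, at 8.94 and 6.39 CPM in saline and 4.96 and 4.39 CPM in vanoxerine, and the saline libraries differed more from each other than the vanoxerine libraries did. The log2 fold change was -0.71 ± 0.21 (SE), a 1.64-fold lower level, with an edgeR adjusted p of 0.0396. This call was lost under 8 of the 19 alternatives. Without saline replicate 1 the log2 fold change was -0.45 and the adjusted p 0.0623, and without vanoxerine replicate 1 or 2 the adjusted p was 0.123 or 0.213.

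The Twist genes encode basic helix-loop-helix factors of mesoderm and mesenchyme, and both fell. Twist1 (ENSMUSG00000035799.6, chr12:33957671-33959829, forward strand) stood at 18.7 and 15.3 CPM in saline and at 11.9 and 11.35 CPM in vanoxerine. Its log2 fold change was -0.55 ± 0.12 (SE), with an edgeR adjusted p of 0.0171. Twist2 (ENSMUSG00000007805.4, chr1:91801461-91848028, forward strand) stood at 25.9 and 28.4 CPM in saline and at 20.1 and 19.0 CPM in vanoxerine. Its log2 fold change was -0.47 ± 0.085 (SE), with an edgeR adjusted p of 0.00783. Without vanoxerine replicate 1 or 2 neither was called, though the log2 fold change was still -0.57 or -0.51 for Twist1 and -0.50 or -0.42 for Twist2. The spread in those fits came from the saline libraries alone, and fewer of all genes were called there. With TPM (a level scaled to transcript length and library total) in place of counts, neither Twist gene was called. The limma-trend adjusted p on log2(TPM + 1) was 0.247 for Twist1 and 0.114 for Twist2. An antisense gene within Twist2, Gm29100, had 114 to 139 reads and a log2 fold change of 0.06 ± 0.27 (SE).

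The Zeb genes encode zinc finger repressors that bind E-boxes and recruit CtBP corepressors. Zeb2 (ENSMUSG00000026872.17, chr2:44983632-45117395, reverse strand) had the largest estimated change of the 9, close in size to that of Snai1 in the other direction. It stood at 71.6 and 67.5 CPM in saline and at 158.8 and 165.1 CPM in vanoxerine, with both vanoxerine libraries more than 2.0-fold above both saline libraries. The log2 fold change was 1.22 ± 0.054 (SE), a 2.33-fold rise, with an edgeR adjusted p of 4.95e-05, and 772 called genes rose more. It was called under all 19 alternatives, with log2 fold changes from 1.09 to 1.49. The antisense gene Zeb2os overlaps Zeb2 and rose with it, by 0.97 ± 0.19 (SE) on the log2 scale (edgeR adjusted p = 0.0113), from 5.17 and 7.48 to 12.9 and 11.8 CPM. The library kit does not mark strand, so reads of the overlapping parts of the pair cannot be told apart, but Zeb2os had 395 to 894 reads where Zeb2 had 4811 to 10995.

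Zeb1 (ENSMUSG00000024238.15, chr18:5591860-5775467, forward strand) was not called. It stood at 11.2 and 10.98 CPM in saline and at 13.95 and 13.5 CPM in vanoxerine, with a log2 fold change of 0.31 ± 0.096 (SE) and an edgeR adjusted p of 0.0511. The difference passed the test without saline replicate 1 or 2 (log2 fold change 0.32 or 0.31) and missed it without vanoxerine replicate 1 or 2 (0.30 or 0.34). The estimate thus moved little, and the spread in each of these fits came only from the group left with 2 libraries. Zeb1 also missed the test with DESeq2 (adjusted p = 0.157). Its TPM depended on a single short transcript. Zeb1-212, of 266 bases, had an effective length of 26 bases and only 6 to 14 reads, yet it made up 73.6% and 60.7% of the Zeb1 TPM in saline and 54.3% and 50.8% in vanoxerine. With it the saline TPM was 7.52 and 4.76 and the vanoxerine TPM 6.64 and 6.34, so the groups overlapped. Without transcripts of an effective length under 100 bases in any library, a setting chosen after the data were seen, the saline TPM was 1.99 and 1.87 and the vanoxerine TPM 3.03 and 3.12, and the groups were apart. The log2 fold change was -0.15 with an average length offset that counted the short transcripts and 0.43 with one that left them out (adjusted p = 0.684 and 0.0535).

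**Figure D2:**
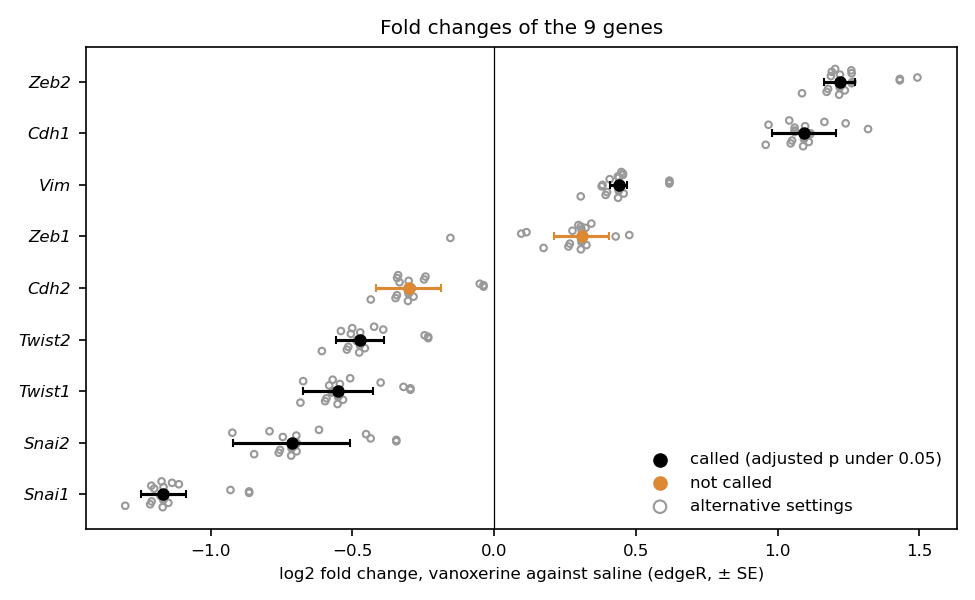
Log2 fold change of vanoxerine against saline (horizontal axis) for each of the 9 genes, with the edgeR estimate and its SE (filled, black where called and orange where not) and the estimates under 19 alternative settings (open grey). Zeb2, Cdh1, Vim and Snai1 keep their sign and call in every open point, and Zeb1 has an open point at -0.15, on the other side of 0.

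Vimentin, the intermediate filament of mesenchymal cells and of many blood-derived cells, was the most abundant of the 9. Vim (ENSMUSG00000026728.9, chr2:13573927-13582826, forward strand) stood at 1853 and 1859 CPM in saline and at 2513 and 2521 CPM in vanoxerine. The libraries of a group were within 10 CPM of each other, and the log2 fold change was 0.44 ± 0.030 (SE), a 1.36-fold rise, with an edgeR adjusted p of 0.000198. Vim rose while the Snail and Twist genes fell, and 2631 called genes rose more than it. Its call stood under all 19 alternatives, with log2 fold changes from 0.31 to 0.62.

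Both cadherins are calcium-dependent adhesion proteins that bind catenins. Cdh1 (ENSMUSG00000000303.12, chr8:106603351-106670246, forward strand) encodes E-cadherin, the cadherin of epithelia that is also found on some dendritic cells and macrophages. It stood at 11.3 and 13.5 CPM in saline and at 25.4 and 27.6 CPM in vanoxerine. The log2 fold change was 1.09 ± 0.11 (SE), a 2.13-fold rise, with an edgeR adjusted p of 0.000992, and it was called under all 19 alternatives with values from 0.96 to 1.32. Cdh2 (ENSMUSG00000024304.14, chr18:16588877-16809246, reverse strand) encodes N-cadherin, the cadherin of neural and mesenchymal cells. It stood at 11.35 and 10.5 CPM in saline and at 8.58 and 9.17 CPM in vanoxerine. Its log2 fold change of -0.30 ± 0.11 (SE) was not called (edgeR adjusted p = 0.0888). It was called under 3 alternatives, upper-quartile factors (adjusted p = 0.0257), protein-coding genes only (0.0475) and the looser threshold, and its log2(TPM + 1) difference was -0.04.

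The authors' deposited table of the same comparison gives log2 fold changes of -1.15 for Snai1, -0.56 for Snai2, -0.49 for Twist1 and -0.45 for Twist2. In the authors' deposited table the values were 1.22 for Zeb2, 0.38 for Vim and 1.08 for Cdh1, with adjusted p-values of 3.15e-47, 7.76e-10 and 1.90e-09. Zeb1 stands there, in the authors' deposited table, at -0.11 (adjusted p = 0.725), on the other side of 0 from the edgeR estimate above, and Cdh2 at -0.24 (adjusted p = 0.265). Which libraries entered that table is not stated.

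Levels of different genes were compared per length, as TPM. In saline the order began with Vim at 1394 ± 19.4 TPM (SD, n = 2), then Twist2 at 18.4 ± 0.568, Snai1 at 16.5 ± 0.078, Zeb2 at 12.9 ± 0.547 and Twist1 at 11.7 ± 2.26. The lower ranks were Snai2 at 3.83 ± 0.821 TPM, Cdh2 at 2.42 ± 0.203, Cdh1 at 2.30 ± 0.249 and, without its short transcripts, Zeb1 at 1.93 ± 0.079. The saline libraries of Zeb2 and Twist1 overlapped, as did those of Cdh2 and Cdh1, so neither pair can be put in order. In vanoxerine Zeb2 came second, at 36.3 ± 0.991 TPM, above Twist2 at 15.5 ± 0.948, Twist1 at 9.27 ± 0.486 and Snai1 at 8.59 ± 0.011. Cdh1, at 5.87 ± 0.376 TPM, stood above Zeb1 without short transcripts (3.08 ± 0.064), Snai2 (2.78 ± 0.236) and Cdh2 (2.33 ± 0.054), and no neighbours overlapped.

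Ratios within a library do not depend on its scaling. Cdh1 over Cdh2, from their TPM, was 0.828 and 1.09 in the saline libraries and was 2.45 and 2.59 in the vanoxerine libraries. E-cadherin and N-cadherin transcripts were thus about equal in the saline libraries, and E-cadherin transcripts were in excess in both vanoxerine libraries, by a 2.63-fold larger ratio. The ratio of Zeb2 to Snai1 stood at 0.807 and 0.755 in saline libraries and at 4.31 and 4.14 in vanoxerine libraries, 5.42-fold larger, so the more abundant repressor transcript of the pair was Snai1 in saline and Zeb2 in vanoxerine. Snai1 over Snai2 fell in the range 3.72 to 5.08 in saline libraries and 2.91 to 3.29 in vanoxerine libraries. For Twist2 over Twist1 the saline ratios were 1.36 and 1.86 and the vanoxerine ratios 1.69 and 1.67, where the groups overlapped. An exact permutation test of 2 against 2 libraries cannot give a two-sided p under 0.333, so no ratio was tested.

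**Figure D3:**
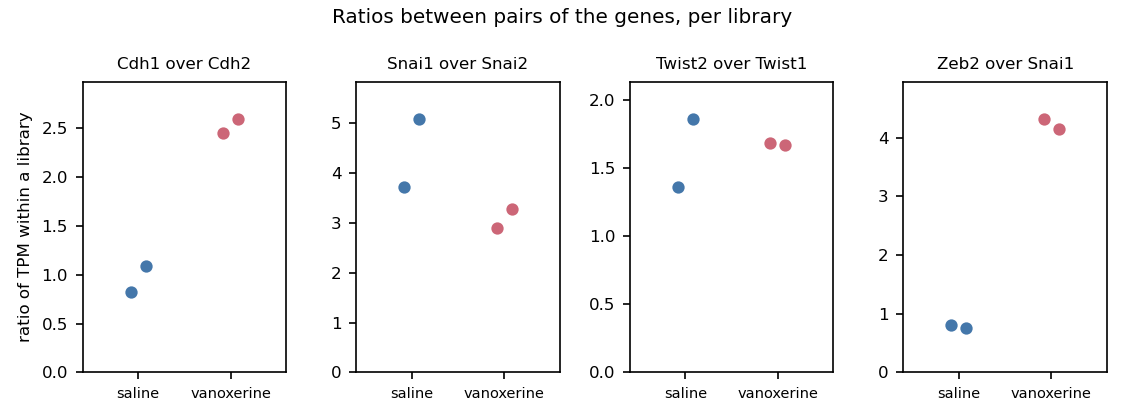
Ratio of the TPM of pairs of the genes within each library (vertical axes start at 0), for saline (blue) and vanoxerine (red). Cdh1 over Cdh2 and Zeb2 over Snai1 are higher in both vanoxerine libraries than in both saline libraries, and the groups overlap for Twist2 over Twist1.

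Snai1, Snai2 and Twist1 each have 1 annotated transcript. Cdh1 has 3, and Cdh1-201, a coding transcript of 4430 bases, took at least 99.8% of its reads. Cdh2-202 took 77.0% and 62.6% of Cdh2 reads in saline and 76.4% and 65.0% in vanoxerine. Vim-203, a retained-intron transcript of 535 bases, took 12.8% to 14.8% of Vim reads in the 4 libraries, yet 50.6% and 53.0% of the saline TPM. The TPM of Vim thus rests in large part on that transcript, while its CPM does not. Of 29 annotated Zeb2 transcripts, 13 exceeded 0.1 TPM in a library. The main one, Zeb2-201, took 48.6% to 65.8% of reads without separating the groups, and Zeb2-212, of 9124 bases, took 16.9% and 13.8% in saline and 22.4% and 24.2% in vanoxerine. Salmon divides shared reads among transcripts by estimate, and these shares were not tested.

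**Figure D4:**
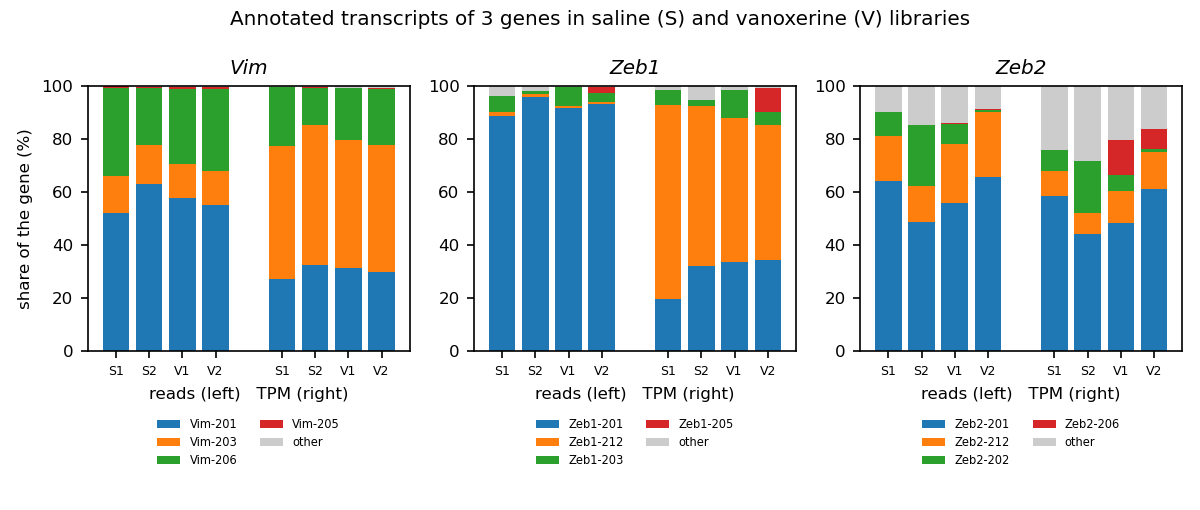
Share (%) of the reads (left bars) and of the TPM (right bars) of Vim, Zeb1 and Zeb2 held by their annotated transcripts, in saline (S1, S2) and vanoxerine (V1, V2) libraries. Zeb1-212 and Vim-203 are small parts of the reads and over 45% of the TPM in every library.

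Among epithelial genes beyond Cdh1, 20 of 22 junction and keratin genes were tested, and 3 rose and 2 fell, beside 21.0% and 15.9% of all genes tested. Their median log2 fold change was 0.40, beside -0.01 over all genes, and it was 0.23 without saline replicate 1, 0.59 without saline replicate 2, 0.26 with upper-quartile factors and 0.24 with log2(TPM + 1). Pkp3, of the desmosome, rose by 0.39 ± 0.087 (SE), and Epcam, an epithelial adhesion gene, by 1.03 ± 0.23. Krt19, named after its values were seen, rose by 1.69 ± 0.48 from under 1 CPM. Cldn4, of tight junctions, fell by 1.83 ± 0.46, and Itgb4, of hemidesmosomes, fell by 0.54 ± 0.14, both on the log2 scale, and the edgeR adjusted p of these 5 genes was 0.0166 to 0.0379. All 5 calls were lost without vanoxerine replicate 1 or 2.

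Of 14 regulators of the epithelial state only 7 were tested. Ovol2 and Elf3 fell, beside 15.9% of all genes tested, and none rose, beside 21.0%. The median was -0.39 and ranged from -0.63 without saline replicate 2 to -0.01 without saline replicate 1 or on the TPM scale. Ovol2, a zinc finger repressor known to hold back Zeb1, fell by 0.98 ± 0.13 on the log2 scale (edgeR adjusted p = 0.00202), from 18.6 and 15.4 to 8.65 and 8.58 CPM. It was called under 16 of the 19 alternatives, with log2 fold changes from -1.115 to -0.703. Elf3, an Ets factor of epithelia, fell by 0.88 ± 0.18 (adjusted p = 0.0126), a call lost without vanoxerine replicate 1 or 2.

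Mesenchymal state genes split. Of 23 tested, 6 rose and 11 fell, beside 21.0% and 15.9% of all genes tested, with a median of -0.20. It was -0.34 without vanoxerine replicate 2 or with upper-quartile factors, and 0.04 with log2(TPM + 1), a scale that moved the median of all genes to 0.13. Tgfbi, a matrix protein induced by TGF-beta, rose by 1.45 ± 0.046 (SE), from 238.7 and 253.2 to 669.4 and 672.0 CPM. Thbs1, which encodes thrombospondin, rose by 0.95 ± 0.036. Fn1, which encodes fibronectin, fell by 0.62 ± 0.037, and Mmp2, a gelatinase, fell by 1.49 ± 0.090, all on the log2 scale with edgeR adjusted p from 1.73e-05 to 0.00013. Col1a1, Col1a2 and Pdgfrb of this list are also among the fibroblast markers below.

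Of 17 other factors of the transition 16 were tested, and 3 rose and 7 fell, beside 21.0% and 15.9% of all genes tested. Their median was -0.19. It was -0.33 with upper-quartile factors, -0.11 without saline replicate 1, -0.12 without vanoxerine replicate 1 and 0.03 with log2(TPM + 1). Snai3, the third Snail family gene, named after its values were seen, stood at 0.798 and 0.309 CPM in saline and 1.42 and 1.55 CPM in vanoxerine and was not called (log2 fold change 1.42 ± 0.52, adjusted p = 0.083). Sox9, a stem and progenitor cell factor, fell by 1.00 ± 0.051 (SE), from 86.4 and 83.3 to 41.8 and 42.8 CPM. Id1 and Id3, which hold basic helix-loop-helix partners away from DNA, fell by 1.40 ± 0.098 and 0.72 ± 0.076. Zfp281, a zinc finger factor, rose by 0.67 ± 0.072, and these 4 had edgeR adjusted p from 7.36e-05 to 0.00108.

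Partners of the repressors moved both ways, as did all genes tested. Of the 19 genes of the corepressor list 6 rose and 4 fell, beside 21.0% and 15.9% of all genes tested. Their median was 0.06 and ranged from -0.07 with upper-quartile factors to 0.24 with log2(TPM + 0.1). It was 0.04 without saline replicate 2, 0.09 without vanoxerine replicate 2 and 0.13 without saline replicate 1. Limd1, a LIM protein that binds Snail, rose by 0.48 ± 0.052 (SE), and Rcor1, the CoREST scaffold, by 0.48 ± 0.053. Nfkb1, a subunit of NF-kappaB that the list counts though it is not itself a corepressor, rose by 0.36 ± 0.043. Kdm1a, the histone demethylase that Snail recruits, fell by 0.27 ± 0.046 on the log2 scale (edgeR adjusted p = 0.00616), with the opposite sign on the TPM scale, where its estimate reached 0.03, and its call was lost without vanoxerine replicate 1 or 2.

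Of 10 genes that act on the stability or place of Snail protein, 5 rose and none fell, beside 21.0% and 15.9% of all genes tested. Their median was 0.26 (0.13 with upper-quartile factors, 0.41 with log2(TPM + 0.1)). Pak1, a kinase that phosphorylates Snail, rose by 1.33 ± 0.086 (SE, edgeR adjusted p = 0.000164), from 10.8 and 10.65 to 26.1 and 28.0 CPM. Fbxo11, a ubiquitin ligase component that marks Snail for breakdown, rose by 0.63 ± 0.070, and Lats2, a kinase known to stabilise Snail, by 0.81 ± 0.12. Fbxw7, another ubiquitin ligase component, rose by 0.40 ± 0.085, a call lost without vanoxerine replicate 1 or 2. The list thus holds genes of opposite action that rose.

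Among catenins and other partners of cadherins, 13 of 14 were tested, and 8 rose and 1 fell, beside 21.0% and 15.9% of all genes tested. Their median was 0.37, and it was 0.23 with upper-quartile factors and 0.11 with the length offset. Ctnnd1, which encodes p120 catenin and keeps cadherins at the membrane, rose by 0.41 ± 0.051 (SE), and Vcl, which encodes vinculin, by 0.57 ± 0.061. Ctnnd1 was called under 14 of the 19 alternatives, and its lowest estimate there was 0.055. Adam10, the protease that sheds E-cadherin, rose by 0.82 ± 0.093, from 61.3 and 50.5 to 98.4 and 99.4 CPM. Adam15 rose by 0.43 ± 0.045 in counts, but had the opposite sign, down to -0.25, with the length offset and on the TPM scale. The edgeR adjusted p of these 4 was 0.000996 to 0.00177. Nectin2, named after its values were seen as the only gene of the list that fell, did so by 0.61 ± 0.11.

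Of 19 other cadherin genes, 10 did not pass the low-count filter. Of the 9 tested none was called higher and 2 were called lower, beside 21.0% and 15.9% of all genes tested. Their median of -0.63 was the value of a single poorly measured gene, Cdh3 (± 1.17 SE), which had only 4 to 27 reads. The median was -0.25 to -0.50 with 1 library left out and -0.01 with log2(TPM + 1). Cdh5, the cadherin of endothelium, fell by 1.05 ± 0.085 (SE) on the log2 scale, from 28.5 ± 1.68 to 13.8 ± 0.296 CPM (SD, n = 2; edgeR adjusted p = 0.000366), and it is also in the endothelial list below. Cdh26 fell by 0.90 ± 0.20 (adjusted p = 0.0164), a call lost without vanoxerine replicate 1 or 2. Cdh17 stood at 7.84 and 8.03 CPM in saline and 8.98 and 10.3 CPM in vanoxerine (adjusted p = 0.141), and Cdh24 had a log2 fold change of -0.23 ± 0.12 (adjusted p = 0.179). Among the 11 cadherin genes tested, those 9 and the members Cdh1 and Cdh2, only Cdh1 was called higher, beside 21.0% of all genes tested. Cdh17 was also higher in both vanoxerine libraries than in both saline libraries, without a call.

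Of 13 genes of the vimentin family and its partners 9 were tested, and 3 rose and 1 fell, beside 21.0% and 15.9% of all genes tested. Their median was -0.03. It ranged from -0.16 with upper-quartile factors to 0.22 with log2(TPM + 0.1), and from -0.06 to 0.14 with 1 library left out. Plec, which encodes the filament linker plectin, rose by 0.67 ± 0.042 (SE), and the lamin genes Lmna and Lmnb1 by 0.34 ± 0.043 and 0.21 ± 0.045. Des, the desmin gene of muscle and mural cells, fell by 0.98 ± 0.15 on the log2 scale. Their edgeR adjusted p was 0.000156 to 0.0148, and the call of Lmnb1 was lost without vanoxerine replicate 1 or 2.

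TGF-beta is a known inducer of the transition. Of 14 genes of its signalling 8 rose and 1 fell, beside 21.0% and 15.9% of all genes tested. Their median was 0.45, and it was 0.30 without saline replicate 1 and 0.77 with log2(TPM + 0.1). Tgfb1, the ligand gene, rose by 0.93 ± 0.046 (SE), from 107.6 and 111.2 to 209.8 and 205.6 CPM, and Tgfbr2, a receptor, by 1.07 ± 0.056, from 70.7 and 67.2 to 140.7 and 148.9 CPM. Ski and Skil, which encode inhibitors of SMAD proteins, rose by 0.84 ± 0.052 and 0.94 ± 0.066, and the 4 genes had edgeR adjusted p from 6.90e-05 to 0.000218. Tgfbr3, a coreceptor gene named after its values were seen as the only one of the list that fell, did so by 0.31 ± 0.078 (adjusted p = 0.0255), a call lost without vanoxerine replicate 1 or 2. The ligand gene Tgfb2 was not called (0.57 ± 0.41, adjusted p = 0.335).

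**Figure D5:**
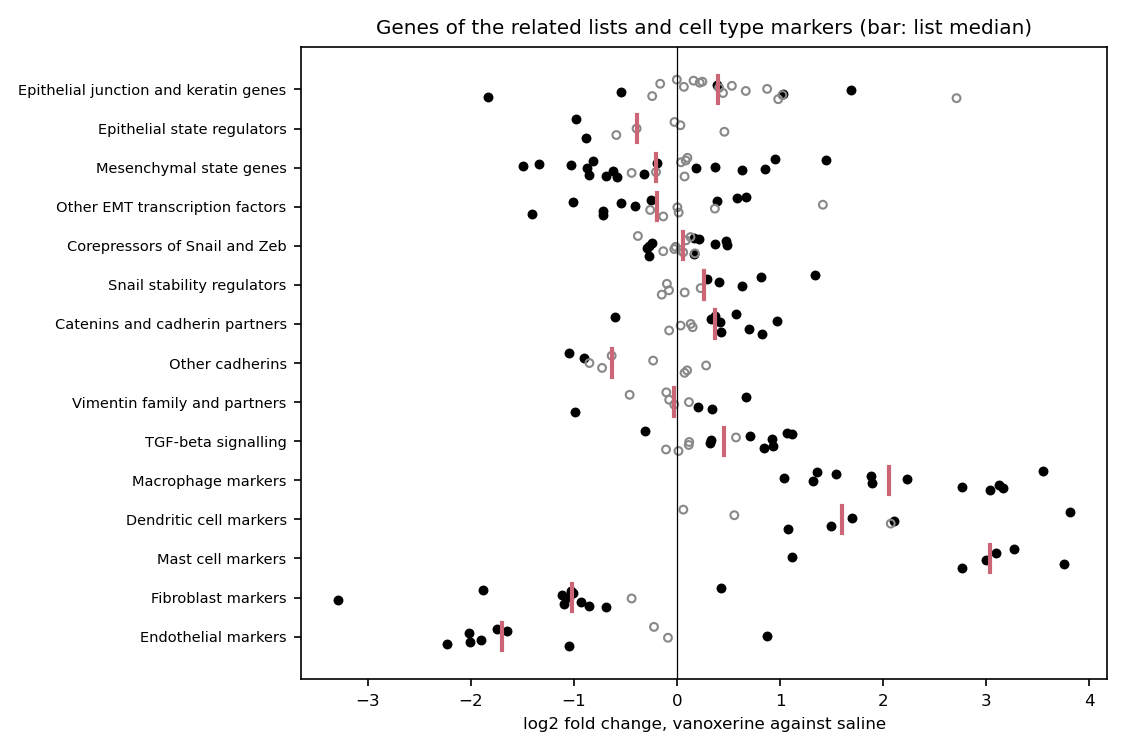
Log2 fold change (horizontal axis, vanoxerine against saline) of each tested gene in the related lists and in marker lists of other cell types, filled where called and open where not, with a red bar at the list's median. All macrophage and mast cell markers are filled and to the right of 0, and 10 of 12 fibroblast markers are filled and to the left.

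Markers of other cell types moved with these genes. The calls in each marker list stand beside 21.0% of all genes tested called higher and 15.9% called lower. All 12 macrophage markers were called higher, and they summed to 1290 and 1340 CPM in saline and 5590 CPM in both vanoxerine libraries, 4.27-fold higher, so that they moved in the same direction as Zeb2, Vim and Cdh1. Of 8 dendritic cell markers 5 were called higher, with sums of 19.6 and 24.9 CPM in saline and 49.1 and 51.7 CPM in vanoxerine, and all 6 mast cell markers were called higher, with sums of 24.9 and 25.0 CPM against 108 and 106 CPM. Fibroblast markers moved in the direction of Snai1, Snai2, Twist1 and Twist2, with 10 of 12 called lower and Thy1 higher, and a median log2 fold change of -1.02. Their sum was 759 and 773 CPM in saline and 563 and 567 CPM in vanoxerine. Thy1 alone made up 204.8 and 226.3 CPM of the saline sums and 286.3 and 291.7 CPM of the vanoxerine sums. Of 10 endothelial markers 7 were called lower and 1, Pecam1, higher, with a median log2 fold change of -1.70. They summed to 157 and 155 CPM in saline and to 146 and 149 CPM in vanoxerine. Pecam1 alone stood at 52.85 and 54.35 CPM in saline and at 98.0 and 98.3 CPM in vanoxerine, so its rise kept the endothelial sum nearly level. Several marker lists thus moved in each direction, and the part of these cell types in the levels of the 9 genes was not tested. In the remaining lists, 4 of 6 neutrophil and 2 of 6 mural markers were called lower and none higher. Only 3 of 4 adipocyte and 3 of 6 keratinocyte markers were tested, and 1 of each was called lower and none higher. The T and NK cell (3 higher, 2 lower of 9) and skeletal muscle lists (1 higher, 2 lower of 6) moved both ways. Krt5, the basal keratin, had 0 reads in all libraries, and colon epithelium markers, of which only Epcam was called, summed to 10.7 and 11.3 CPM in saline and 14.1 and 14.9 CPM in vanoxerine.

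For each member called, the genes with the most similar profile over the 4 libraries were found among 11885 protein-coding genes, by the Euclidean distance between centred log2 CPM values. The nearest to Zeb2 were Grk3 (distance 0.00828) and Satb1 (0.0284), and the nearest to Vim were Ppp2r5c (0.00797) and Cdkn1a (0.0152). Snai1 lay nearest to Apol9b (0.0124) and Apol6 (0.0194), Twist2 to the ribosomal protein genes Rpl36al (0.0148) and Rps4x (0.0158), and Twist1 to Lrrn4cl (0.0369) and Fkbp14 (0.039). Cdh1 lay farther from its nearest genes, Ikbke (0.0596) and Abcg3 (0.0602), and Snai2 farthest, from Itga10 (0.0904) and Card10 (0.0955). With 4 libraries in 2 groups such a likeness rests mainly on the size of the fold change.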

How the data were processed

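Per the labels' protocols, RNA of snap-frozen tumours was made into libraries with the TruSeq RNA v2 kit. The submitters' processing notes name GRCm38, fastp, DESeq2 and Salmon (version 1.3.0); their annotation release and settings are not stated there. For each library the authors deposited an estimated count, a TPM and an effective length, as the file headers name them, over 140992 transcripts. Their deposited comparison table holds a base mean (a normalized signal), a log2 fold change with its error, and p-values. It also has 4 columns of per-library values that match no sample and were not used.

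Here, estimated counts were summed per gene with GENCODE M21 (139791 transcripts had a gene, with 99.56% to 99.63% of reads) and rounded. They were tested with edgeR 4.0.16 in R 4.3.3 (TMM factors, default filter with a minimum count of 10 and total of 15, quasi-likelihood test, no block). The SE comes from the F statistic. TPM was summed per gene. The fit was also run on counts simulated with means and dispersions taken from these data. Replicate numbers in the labels tie no libraries, and same-numbered libraries did not deviate together (correlation -0.039). With 2 against 2 libraries there are 3 splits.

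Alternatives were median-of-ratios, upper-quartile and library-total scaling, no low-count filter or one at 1 CPM on average, a threshold of 0.1, limma-voom (limma 3.58.1), DESeq2 1.42.0, limma-trend on log2(TPM + 1) and log2(TPM + 0.1), an offset for transcript length, only protein-coding genes, a replicate block and each library left out. The length offset and log2(TPM + 1) were repeated without the 13473 transcripts of an effective length under 100 bases, a choice made after seeing the data. The members and lists were chosen with earlier results of these data known. The rule for named genes takes the 9 members, up to 4 genes with the smallest p per related list, genes that overlap a member and the 2 nearest profiles (mean log2 CPM of at least 1). Protein sequences were not used here.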

Additional observations from a re-analysis of the deposited data

How the results depend on the processing

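Snai1, Zeb2, Vim and Cdh1 kept their direction and call under all 19 alternatives, while Snai2 was called in 11 of them, Twist1 in 12, Twist2 in 14, Zeb1 in 4 and Cdh2 in 3. Zeb1 had the opposite sign, -0.15, with the length offset, where its short transcripts enter the average length. Genes called were 6916 with edgeR, 4307 with the length offset, and 3107 to 9708 with 1 library left out. Members called lower were 4; 2 with the length offset, with or without short transcripts; 1 with log2(TPM + 1), with or without short transcripts, and with log2(TPM + 0.1); and 1 to 4 with 1 library left out, where 1 was the count without vanoxerine replicate 1 or 2. The lone library is then assumed to vary like the other group. Without a vanoxerine library that spread is the saline one, which was wider (mean chi-square per gene 37.5 against 12.2), and fewer of all genes were called. A call lost there thus does not show that a gene depended on that library. Of the calls 56.9% were higher, against 39.0% with upper-quartile factors, which moved the median of all genes to -0.14, and 82.5% with log2(TPM + 1), which moved it to 0.13. With the replicate block 6391 genes were called, and 3 members were higher and 4 lower as without it. Other scalings, the filters, DESeq2 and limma-voom left the count of members lower at 4 or 5. With 2 libraries per group and the low reads of Snai2 (289 to 683) and Cdh2 (594 to 867), small changes were not detectable with certainty.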
